A study of Canis lupus familiaris with 11 samples.

Results

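The study ranked canine exon sequences by the coefficient of variation (*CV*, the standard deviation divided by the mean) of their mRNA-Seq counts and listed the most stable of them in a supplement. Of the 50 genes in that list, 12 were taken on to RT-qPCR, and the other 38 are described here. Of these, 37 had a row set of their own among the 24390 genes of the deposited exon counts, whereas *THRAP3* was counted jointly with another gene and was left out. The 37 genes comprised 544 exon bins, the non-overlapping exon pieces to which reads were assigned. The data consisted of poly(A) RNA libraries from 8 osteosarcoma tissues and 3 primary osteosarcoma cell lines of client-owned dogs of large and medium-sized breeds, each sampled before cytotoxic chemotherapy. The tissues came from dogs of 4 years and 6 months to 12 years and 6 months, and the cell lines from dogs of 5 years and 8 months to 8 years and 7 months. Most tumours were labelled osteoblastic, but tissue 1033 was a lung metastasis, 0320 an osteochondrosarcoma, DOS-126 of unknown histopathology and OSCA-32 a fibroblastic tumour; the treatment labels read CARBO (1033, 0460), AMP (1091, OSCA-40), EUTH at Dx (0320, DOS-119), PALL (DOS-127) and SOC (DOS-126, DOS-71, OSCA-30, OSCA-32). For RNA isolation, the RNeasy Fibrous Tissue Mini Kit served for 4 tissues (1033, 1091, 0320 and 0460), TRIzol for the 4 DOS tissues and the RNeasy Mini Kit for the cell lines, so that kit and kind of sample cannot be told apart between tissues and lines.

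The genes fall into the housekeeping machinery of the cell. Heterogeneous nuclear ribonucleoproteins and related RNA-binding proteins coat transcripts as they are made, the splicing, capping and polyadenylation factors process them, and the traffic proteins sort the encoded receptors through coated vesicles and endosomes. Signalling genes such as *RAC1* and *JAK1* pass on signals from receptors and are widely studied in cancer. A sequence that is to serve as normalizer in RT-qPCR must vary little between tumours, and it must do so at the exons that the assay amplifies, which is why both the whole gene and its single bins are described.

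Depth, as counts added up over all bins, was between 3123757 and 24902774 per library, where a read that spans bins counts in each. DOS-71 (3123757) and OSCA-32 (3471461) had the lowest depth. Both also stood apart from the other 9 libraries in how reads were spread over the bins of a gene. Both had a larger share of the gene sum than each of the other 9 libraries in 66 of the 508 bins with a mean of at least 10, and a smaller share in 43. Together these were 21.5% of the bins, beside 20.5% of the 98962 bins of all genes. Some results below are given with and without this pair. The *CV* of the gene sum of single genes and the *CV* within tissues or within lines are given with it only.

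Over the 11 libraries, the *CV* of the gene sum (the normalised read count added up over all bins of a gene) had a median of 0.213 in the 37 genes and ranged from 0.117 to 0.361. The median was 0.183 in the 11 RT-qPCR genes with a row set of their own, and 0.455 in the 6895 genes with a mean at or above that of the least abundant of the 37. These values describe the choice and were not tested, because the genes were picked for a low *CV* of a bin over a sample set that held these libraries. A *CV* under 0.2 was seen in 12 genes, a *CV* of 0.2 to 0.3 in 23 and a higher one in 2 (*SRRT* and *RABEP2*). The library with the most of a transcript held a median of 2.0 times as much as the one with the least, from 1.48 to 4.19 times. Counting error made up at most 12.0% of the variance of a gene sum when every bin count was taken as an independent read. Reads that span bins count in each, so that this share may be too small. The mean gene sum was lowest in *CPSF4*, at 237 normalised reads.

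**Figure D1:**
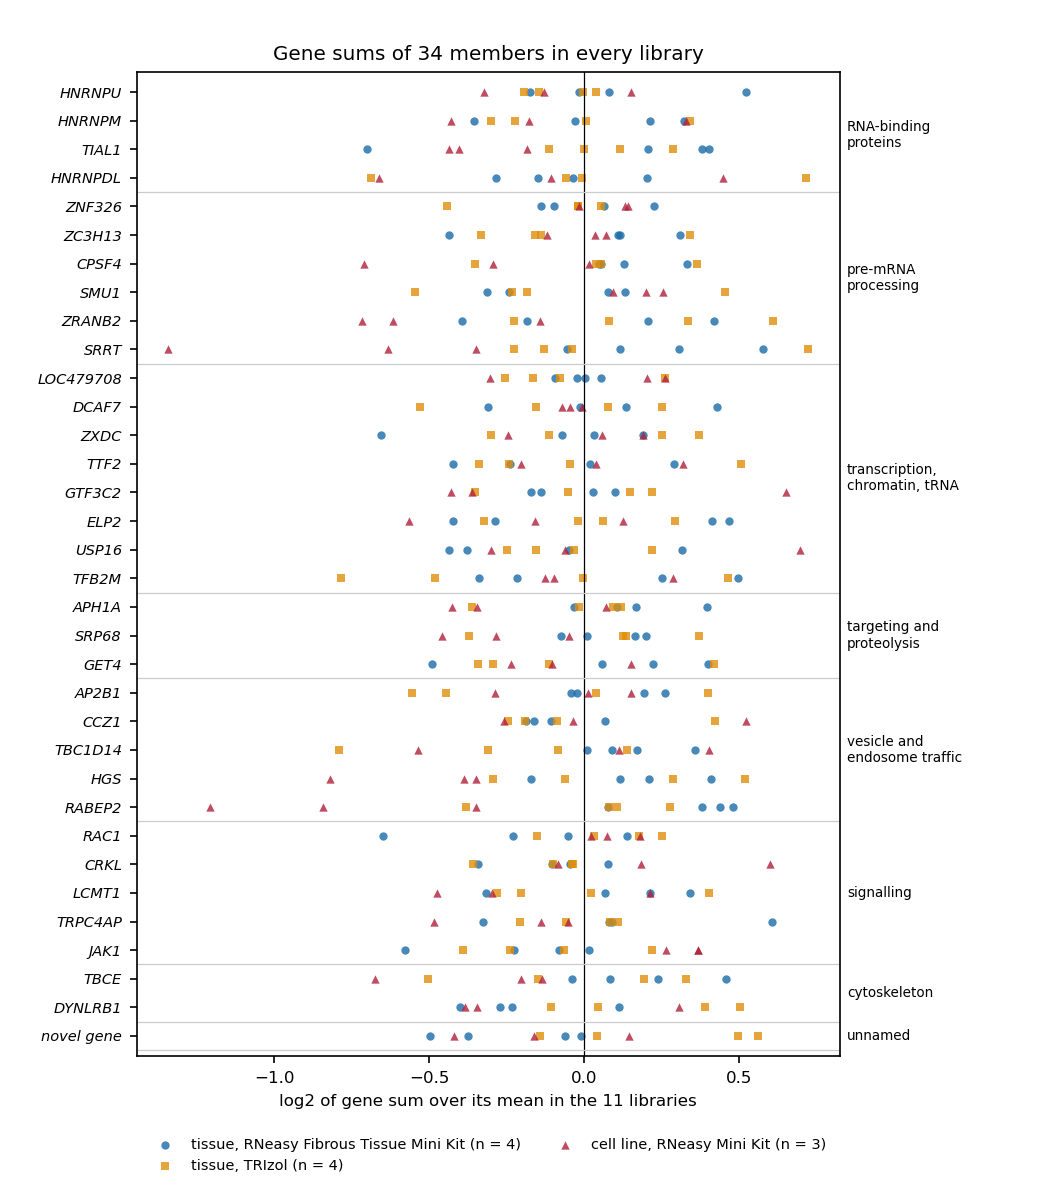
Gene sum of 34 of the 37 genes in every library, as log2 of the value over the gene's mean in the 11 libraries, grouped by function and ordered by *CV* within a group. Circles are tissues of the RNeasy Fibrous kit, squares are TRIzol tissues and triangles are cell lines; all 3 cell lines lie at the left for *SRRT* and *HGS* and at the right for *JAK1*.

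Among the 6 RNA-binding proteins, the *CV* of the gene sum was lowest in *HNRNPU*, at 0.171 ± 0.071 (jackknife SE, n = 11). *HNRNPU* (ENSCAFG00000015835; CanFam3.1 chromosome 7, 35833795 to 35842967, minus strand) encodes a scaffold protein that binds nascent RNA and chromatin. Its gene sum was 4914, 5584 and 8081 in the lowest, median and highest tissue and 5139, 6253 and 4499 in OSCA-30, OSCA-32 and OSCA-40. The cell lines lay on both sides of the tissue median, and tissue 0460 lay far above the other 7. The *CV* was highest in *HNRNPDL* (chromosome 32, 6404205 to 6407845, minus strand), a relative of HNRNPD, at 0.30 ± 0.075. Gene sums were 446, 695 and 1181 in the lowest, median and highest tissue and 454, 980 and 668 in the 3 lines. The values of DOS-71 and OSCA-32 were the 2 highest of the 11. The splicing regulator *HNRNPM* (0.202) and the stress granule protein *TIAL1* (0.239) had values between these.

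The group of 6 pre-mRNA processing genes held both ends of the whole range. *ZNF326* (ENSCAFG00000020195; chromosome 6, 58598416 to 58632776, minus strand), a subunit of the DBIRD complex that couples transcript elongation to splicing, had a *CV* of 0.117 ± 0.039. It had gene sums of 713, 957 and 1134 in the lowest, median and highest tissue and 960, 1064 and 1071 in the lines. All 3 lines lay within the tissue range. *SRRT* (ENSCAFG00000023538; chromosome 6, 8878177 to 8892948, minus strand) encodes ARS2, a partner of the nuclear cap-binding complex, and had a *CV* of 0.361 ± 0.081. Its gene sum was 1805, 2173 and 3484 in the lowest, median and highest tissue and 832, 1658 and 1360 in the lines. Here, every line lay below every tissue. The *CV* was 0.168 in the m6A writer subunit *ZC3H13*, 0.199 in the polyadenylation factor *CPSF4*, 0.203 in the spliceosome protein *SMU1* and 0.294 in *ZRANB2*, a zinc finger splicing protein.

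Among the 8 genes grouped under transcription, chromatin and tRNA, the lowest *CV* was that of *LOC479708* (chromosome 6, 1263850 to 1469960, plus strand), at 0.136 ± 0.022. Its role is not given in the sources used here and its place in this group is unsure; the next lowest value was that of *DCAF7*, at 0.177. Gene sums were 513, 591 and 735 in the lowest, median and highest tissue and 706, 496 and 734 in the lines. The highest was that of the mitochondrial transcription factor *TFB2M* (chromosome 7, 37259753 to 37278266, minus strand), at 0.270 ± 0.047. The reads summed to 333, 533 and 809 in the lowest, median and highest tissue and 536, 700 and 525 in the lines. For *TFB2M* the spread lay between tissues, with a *CV* of 0.312 in the tissues and 0.167 in the lines. *DCAF7*, *ZXDC*, the termination factor *TTF2*, the TFIIIC subunit *GTF3C2*, the Elongator subunit *ELP2* and the histone deubiquitinase *USP16* had a *CV* from 0.177 to 0.259. The gene sums of *GTF3C2* and *USP16* spread more between the lines (*CV* of 0.456 and 0.382) than between the tissues (0.128 and 0.189), and in both OSCA-32 held the highest value of the 11 libraries.

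The 3 genes of protein targeting and membrane proteolysis had similar values. *APH1A* (chromosome 17, 59511557 to 59514965, minus strand), a subunit of gamma-secretase, had a *CV* of 0.172 ± 0.039. It had gene sums of 677, 934 and 1147 in the lowest, median and highest tissue and 685, 916 and 648 in the lines. *SRP68*, a subunit of the signal recognition particle, had a *CV* of 0.174. *GET4* (chromosome 6, 15976762 to 15994705, minus strand), which helps to insert tail-anchored proteins into the endoplasmic reticulum, had a *CV* of 0.213 ± 0.033. The reads summed to 413, 570 and 775 in the lowest, median and highest tissue and 540, 645 and 493 in the lines.

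Of the 5 genes of vesicle and endosome traffic, *AP2B1* (chromosome 9, 37947044 to 38078414, minus strand), a subunit of the clathrin adaptor AP-2, had the lowest *CV*, at 0.195 ± 0.042. Its gene sum was 1173, 1736 and 2276 in the lowest, median and highest tissue and 1741, 1414 and 1915 in the lines. The highest was that of *RABEP2* (ENSCAFG00000017300; chromosome 6, 18397932 to 18413728, minus strand), an effector of endosomal RAB GTPases, at 0.324 ± 0.076. Gene sums were 396, 590 and 720 in the lowest, median and highest tissue and 287, 223 and 405 in the lines. Of the lines, OSCA-40 overlapped with the lowest tissue, DOS-71. The RAB7 activator subunit *CCZ1* (0.203), the RAB11 and autophagy regulator *TBC1D14* (0.232) and the ESCRT-0 subunit *HGS* (0.267) lay between them.

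The 6 signalling genes spanned 0.158 to 0.213. *RAC1* (chromosome 6, 11724637 to 11757069, plus strand), the GTPase of lamellipodia, had a *CV* of 0.158 ± 0.054. It had gene sums of 1024, 1594 and 1912 in the lowest, median and highest tissue and 1628, 1690 and 1817 in the lines. *JAK1* (ENSCAFG00000018615; chromosome 5, 45328692 to 45407460, plus strand), a cytokine receptor kinase, had a *CV* of 0.213 ± 0.035. The reads summed to 1458, 1961 and 2537 in the lowest, median and highest tissue and 2812, 2811 and 2618 in the lines, so that every line lay above every tissue. The adaptor *CRKL* (0.199), the PP2A methyltransferase *LCMT1* (0.207) and *TRPC4AP* (0.211), an adaptor of a ubiquitin ligase, lay between them. The cytoskeleton was represented by the tubulin folding cofactor *TBCE* (0.229 ± 0.046) and the dynein light chain *DYNLRB1* (0.234 ± 0.034). *TBCE* had gene sums of 844, 1318 and 1645 in the lowest, median and highest tissue and of 1040, 1090 and 749 in the lines; those of *DYNLRB1* were 220, 285 and 412 in the tissues and 229, 359 and 223 in the lines. A gene without a name (ENSCAFG00000016809) had a *CV* of 0.251 ± 0.050, with gene sums of 173, 238 and 360 in the tissues and 182, 218 and 270 in the lines.

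Within the tissues alone the median *CV* of the 37 genes was 0.198, beside 0.391 in the 6895 genes of like abundance, and within the 3 lines it was 0.192. The *CV* between tissues exceeded that between lines in 22 genes and was below it in 15. The 3 lines were nearly equal in *DCAF7* (*CV* of 0.0224) and widely spread in *GTF3C2* (0.456). In *GTF3C2* a single line stood apart, with 673 normalised reads in OSCA-30, 706 in OSCA-40 and 1428 in OSCA-32.

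The single bins of a gene differed widely in *CV*, and the median bin varied more than the gene sum in all but 3 genes. The *CV* of the most stable bin was 0.113 (*SRP68* bin 4) to 0.191 (*USP16* bin 13), with a median of 0.161; these low values are what the list was chosen for. At that limit the list was not alone, since 206 of 12370 genes outside it also had a bin of at least 10 normalised reads with a *CV* of 0.191 or less. The least stable bin had a median *CV* of 0.508, from 0.342 (*GET4*) to 1.38 (*HNRNPDL*). In the median gene, the *CV* of the least stable bin was 3.18 times that of the most stable one, from 2.01 times in *CPSF4* to 7.60 times in *HNRNPDL*. Without DOS-71 and OSCA-32 the median was 2.92 times, the range 1.46 to 5.90 times, and the value of *HNRNPDL* 2.24 times. The ratio was 1.76 in the 6507 comparable genes, in which the most stable bin was not a chosen one. The bins themselves varied less in the 37 genes than in those 6507. The median *CV* was 0.508 beside 0.715 for the least stable bin and 0.299 beside 0.512 for the median bin. The 37 genes also had more bins, with a median of 15 beside 11. A *CV* above 0.5 was found in 41 bins of 19 genes. In 32 genes the *CV* of the gene sum lay between those of the most stable and the median bin. It lay under that of the most stable bin in *ZNF326* and *DCAF7*, and above that of the median bin in 3 genes, among them *TIAL1* and *SRRT*.

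**Figure D2:**
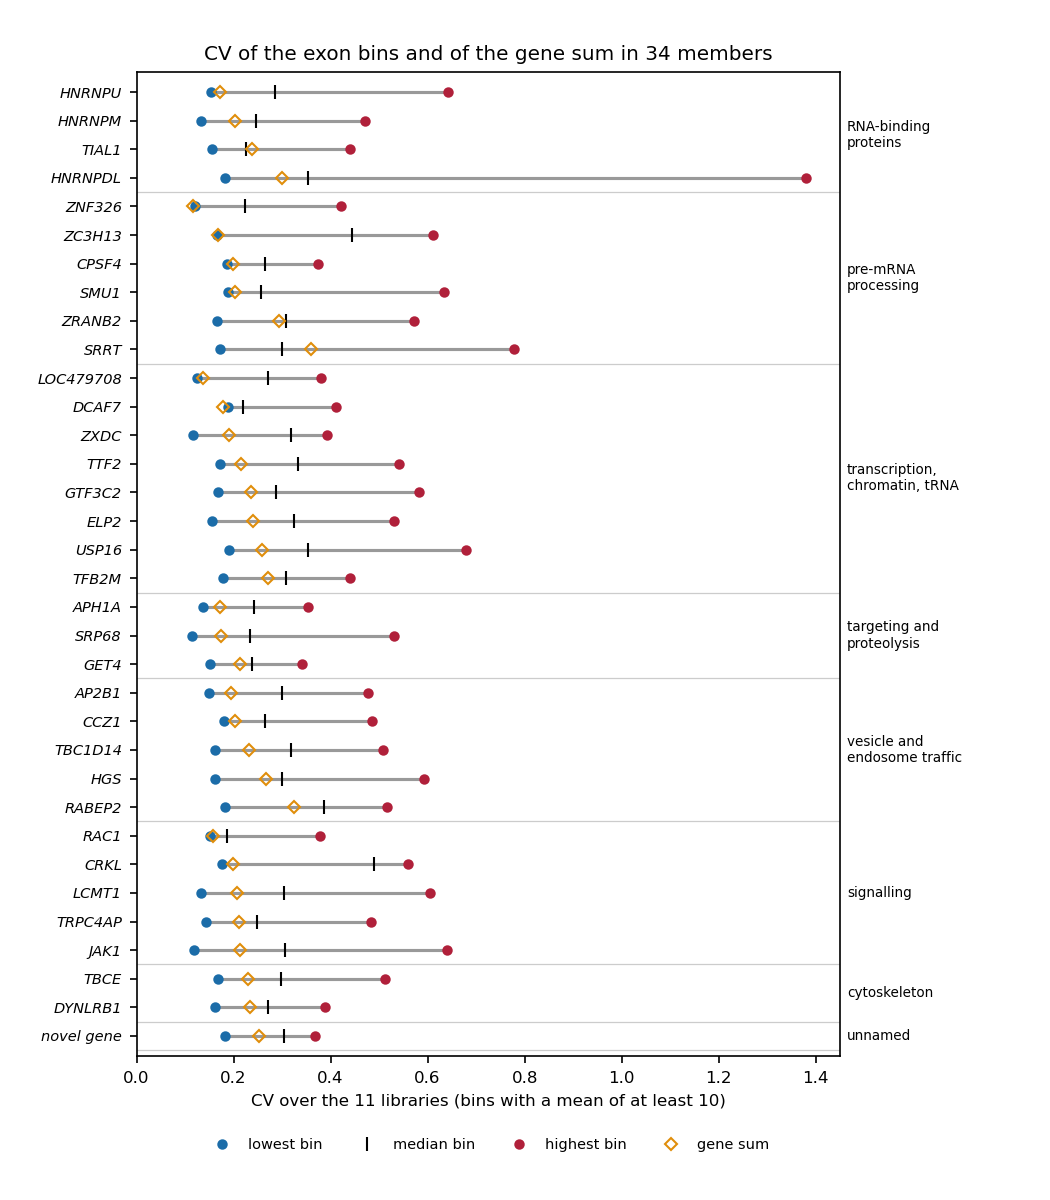
*CV* over the 11 libraries of the most stable, median and least stable bin (bins with a mean of at least 10) and of the gene sum in 34 of the 37 genes. Lines join the lowest and the highest bin; *HNRNPDL* reaches 1.38, whereas the gene sums stay between 0.117 and 0.361.

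The place of these bins in the transcript was not tested, since the list was chosen by the most stable bins. In the 34 genes with at least 6 bins, the most stable bin lay in the middle of the transcript in 18 (52.9%), with the bins counted in 3 parts of which the middle one took any remainder, in the 5′ part in 9 and in the 3′ part in 7. In 5592 genes of like abundance the most stable bin lay in the middle part in 34.1%. The least stable bin, in contrast, lay in the 5′ part in 17 of the 34 genes, in the 3′ part in 14 and in the middle in 3 (8.82%), beside 17.1% of the 5592 genes. The parts of the 34 genes were taken over all bins, also those with a mean under 10. *ZC3H13* bin 8, its first bin with a mean of at least 10, therefore counted as middle. How far this way of counting bears on the distance to the 5592 genes was not tested. The least stable bin was the first or the last of those with a mean of at least 10 in its gene in 51.4% of the 37 genes and in 50.1% of comparable ones.

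Many of the least stable bins stood out through DOS-71 and OSCA-32. Without these libraries, 15 bins in 7 genes had a *CV* above 0.5, in place of 41 in 19, and the median *CV* of the least stable bin was 0.429. *HNRNPDL* bin 2, the last but one of 8 along the transcript, held 183 normalised reads in DOS-71 and 88.7 in OSCA-32 but 7.62 to 26.2 in the other 9 libraries. Its share of the gene sum was 15.5% and 9.05% in that pair and 1.59% to 3.84% in the others. The least stable bin of *HNRNPDL* had a *CV* of 0.360 without the pair. In the endosomal sorting gene *HGS*, 10 of 22 bins took a share of the gene sum beyond that of the other 9 libraries in both DOS-71 and OSCA-32, 5 of them a larger and 5 a smaller one. *HGS* bin 4 took 1.46% and 2.01% of the gene sum in the pair and 3.83% to 7.01% in the others, whereas bin 20 took 8.45% and 6.38% against 2.0% to 3.96%. These bins were chosen after their values had been seen. The *CV* of the gene sums moved little, with a median of 0.210 without the pair. DOS-71 carried the same index and lane label as DOS-126, so that these libraries cannot have shared a run. The parts of depth and of sequencing run in the differences of DOS-71 and OSCA-32 were not tested.

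**Figure D3:**
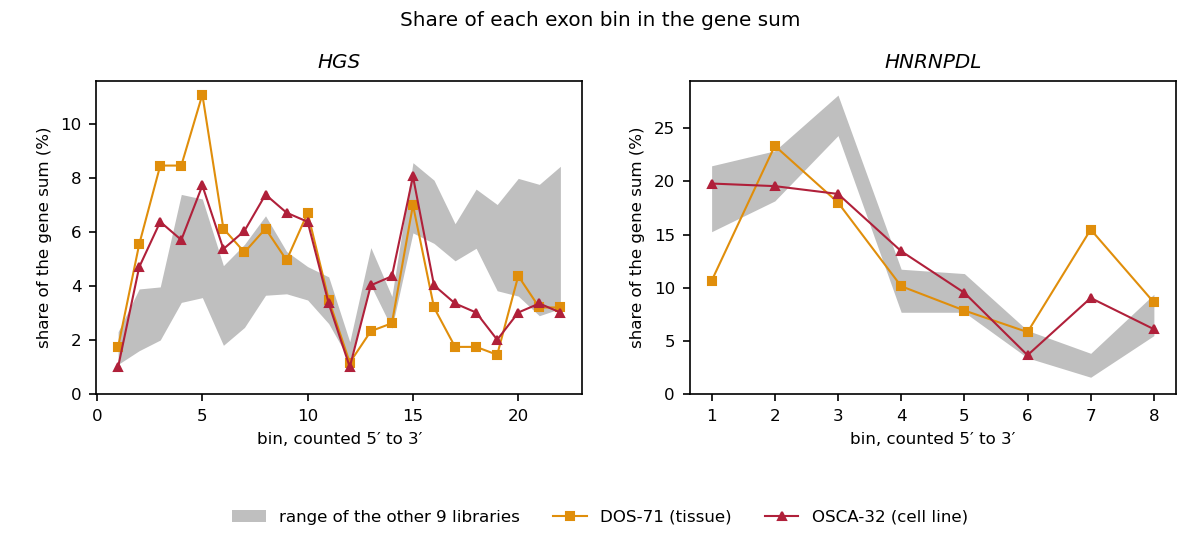
Share of each exon bin in the gene sum (%) of *HGS* and *HNRNPDL*, with bins counted from the 5′ to the 3′ end. The grey band is the range of the other 9 libraries, which DOS-71 and OSCA-32 leave in the same direction at 10 bins of *HGS* and at 2 bins of *HNRNPDL*; *HGS* bin 4 is plotted at position 19 and *HNRNPDL* bin 2 at position 7.

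Tissues and cell lines were compared in the level of the genes. The labels pair no line with a tissue, so that culture, dog, cell mix and kit cannot be told apart. Of the 37 genes, 2 differed between the 8 tissues and the 3 lines at an adjusted p of 0.05 (limma on log2(gene sum + 1), Benjamini-Hochberg over 13858 genes), *RABEP2* and *SRRT*, both lower in the lines. Among all genes tested, 17.0% differed, 2.60% higher and 14.4% lower in the lines. Low *CV* over these libraries limits how far the groups can lie apart, and nothing is read from the small count. *RABEP2* was lower in the lines by a log2 difference of -0.98 ± 0.27 (SE; adjusted p = 0.0271, limma), and *SRRT* by -0.93 ± 0.29 (adjusted p = 0.0460, limma). *SRRT* also lost its call with a pseudocount of 10 (adjusted p = 0.0529) or no filter (adjusted p = 0.0616). Neither passed with the libraries scaled by median ratios or to equal totals, with edgeR or DESeq2, or against the tissues of a single kit, and the adjusted p ranged from 0.0134 to 0.257 over the alternatives for *RABEP2* and from 0.0185 to 0.407 for *SRRT*. With single libraries left out, *SRRT* did not pass without any one of 1033, 1091, 0320, 0460, DOS-119, DOS-126 and DOS-127 (adjusted p = 0.0519 to 0.0713, limma), without OSCA-30 (adjusted p = 0.202) or without OSCA-40 (adjusted p = 0.0916). *RABEP2* did not pass without OSCA-30 (adjusted p = 0.0748, limma) or without OSCA-32 (adjusted p = 0.125). Both genes remained lower in the lines, by a log2 difference of -1.21 to -0.78 for *RABEP2* and -1.15 to -0.65 for *SRRT* with any 1 library left out, and of -1.14 and -0.82 for *RABEP2* and -1.01 and -0.86 for *SRRT* against the RNeasy Fibrous and the TRIzol tissues alone. Without both DOS-71 and OSCA-32, *SRRT* passed (-1.20, adjusted p = 0.0471, limma) and *RABEP2* did not (-0.86, adjusted p = 0.0773). In bulk libraries, fewer cells of a type and less RNA per cell cannot be told apart.

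The groups did not overlap for 3 genes, *SRRT*, *HGS* and *JAK1*, beside 15.5% of all genes tested. *HGS*, which sorts ubiquitinated receptors on endosomes, had 1028, 1412 and 1810 normalised reads in the lowest, median and highest tissue and 963, 714 and 989 in the lines (log2 difference of -0.65 ± 0.25, adjusted p = 0.0944, limma). *JAK1* had a log2 difference of 0.50 ± 0.23 (adjusted p = 0.158, limma). By DESeq2 on the recovered reads, *JAK1* and *CRKL* passed as higher in the lines, with log2 differences of 0.74 (adjusted p = 0.0221) and 0.65 (adjusted p = 0.0220). Over all alternatives the adjusted p ranged from 0.0221 to 0.893 for *JAK1* and from 0.0220 to 0.746 for *CRKL*.

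The median log2 difference was -0.07 in the 37 genes and -0.37 in all genes tested, and 30 of the 37 lay above the latter. Because genes of low *CV* must lie near 0, this count, like those by function group below, is largely fixed by the choice of the genes. The sign of a single gene therefore depended on the scaling: 14 genes had a positive difference as deposited, 24 with equal totals and 27 with median ratios, which raised the median of all genes by 0.18 and 0.27. Relative to the median of all genes, the 8 genes of transcription, chromatin and tRNA all lay above it, as did the 6 signalling genes and the 3 of protein targeting. Of the pre-mRNA processing genes 3 of 6 lay above it, of the RNA-binding proteins 5 of 6, of the traffic genes 3 of 5 and of the cytoskeletal genes 1 of 2. None of the genes in the RNA-binding, transcription, targeting, signalling and cytoskeleton groups passed the test. Their log2 differences ranged from -0.41 (*TIAL1*) to -0.07 (*HNRNPDL*) in the 4 RNA-binding proteins named above, and in the other groups from -0.22 (*ELP2*) to 0.21 (*USP16*), from -0.33 (*SRP68*) to -0.04 (*GET4*), from -0.27 (*TRPC4AP*) to 0.50 (*JAK1*) and from -0.41 (*TBCE*) to -0.14 (*DYNLRB1*), respectively.

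**Figure D4:**
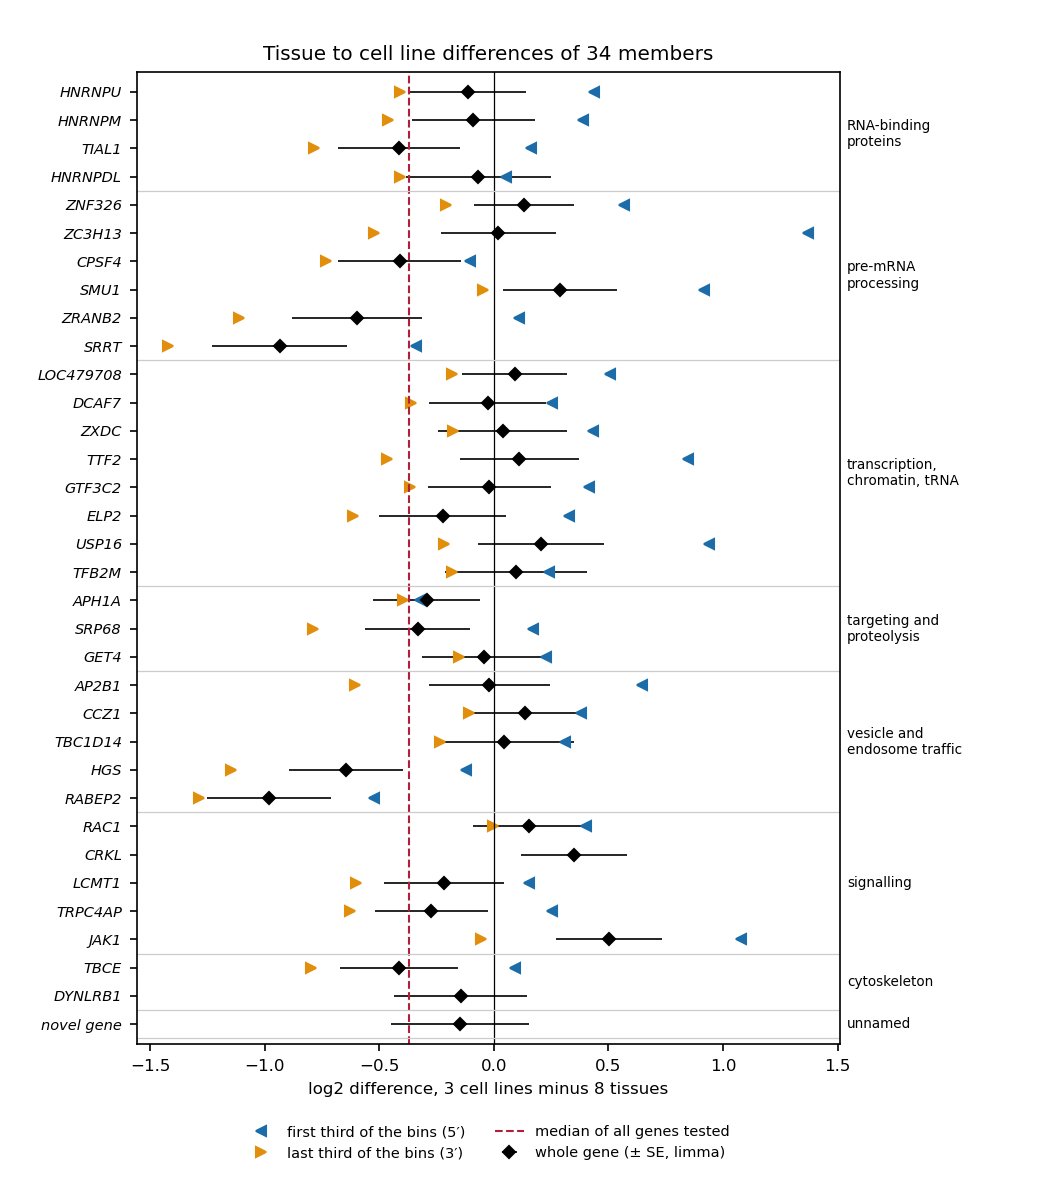
Log2 difference between the 3 cell lines and the 8 tissues in 34 of the 37 genes, for the whole gene (diamonds, ± SE from limma) and for the 5′ and the 3′ part of its bins (triangles, 31 genes with at least 6 bins). The dashed line is the median of all genes tested (-0.37); the 3′ part lies to the left of 0 and of the 5′ part in these 31 genes.

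The difference depended on the part of the transcript that was read. In the 34 genes with at least 6 bins, the sum over the 5′ part of the bins was higher in the lines in 29, with a median log2 difference of 0.32, and the sum over the 3′ part was lower in the lines in all 34, with a median of -0.44. In each of the 34 genes the 5′ part gave the higher difference. *SRRT* differed by -0.34 in its 5′ part (adjusted p = 0.407, limma) and by -1.42 in its 3′ part (adjusted p = 0.0185). Its first bin along the transcript had a mean of 57.5 normalised reads in the tissues and 55.9 in the lines, while bin 3, the last but 2, had 121 and 30.6. *RABEP2* differed by -0.52 (adjusted p = 0.257) and -1.29 (adjusted p = 0.0134), and *JAK1* by 1.08 (adjusted p = 0.0343) and -0.06 (adjusted p = 0.893). *SRP68* passed in its 3′ part alone (-0.79, adjusted p = 0.0473, limma). *ZC3H13* had the largest difference of a 5′ part, 1.37, but from bins with a mean under 10. The parts were compared after the bins of *SRRT* had been seen.

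The same slope was seen in every cell line. The ratio of 3′ to 5′ reads, divided by its geometric mean over the libraries and taken as the median over 34 genes, was 0.650, 0.669 and 0.630 in OSCA-30, OSCA-32 and OSCA-40. It was 1.16, 1.38, 1.16 and 1.47 in the tissues 1033, 1091, 0320 and 0460, and 0.873, 1.81, 0.930 and 0.888 in DOS-119, DOS-126, DOS-127 and DOS-71. The lines lay below all tissues, with a log2 difference of -0.85. The 10 RT-qPCR genes with at least 6 bins had ratios of 0.585 to 0.652 in the lines and 0.852 to 1.94 in the tissues. Strand was known only for the listed genes, so that the slope over all genes was not analysed here. Its part in the differences of the gene sums was not tested.

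**Figure D5:**
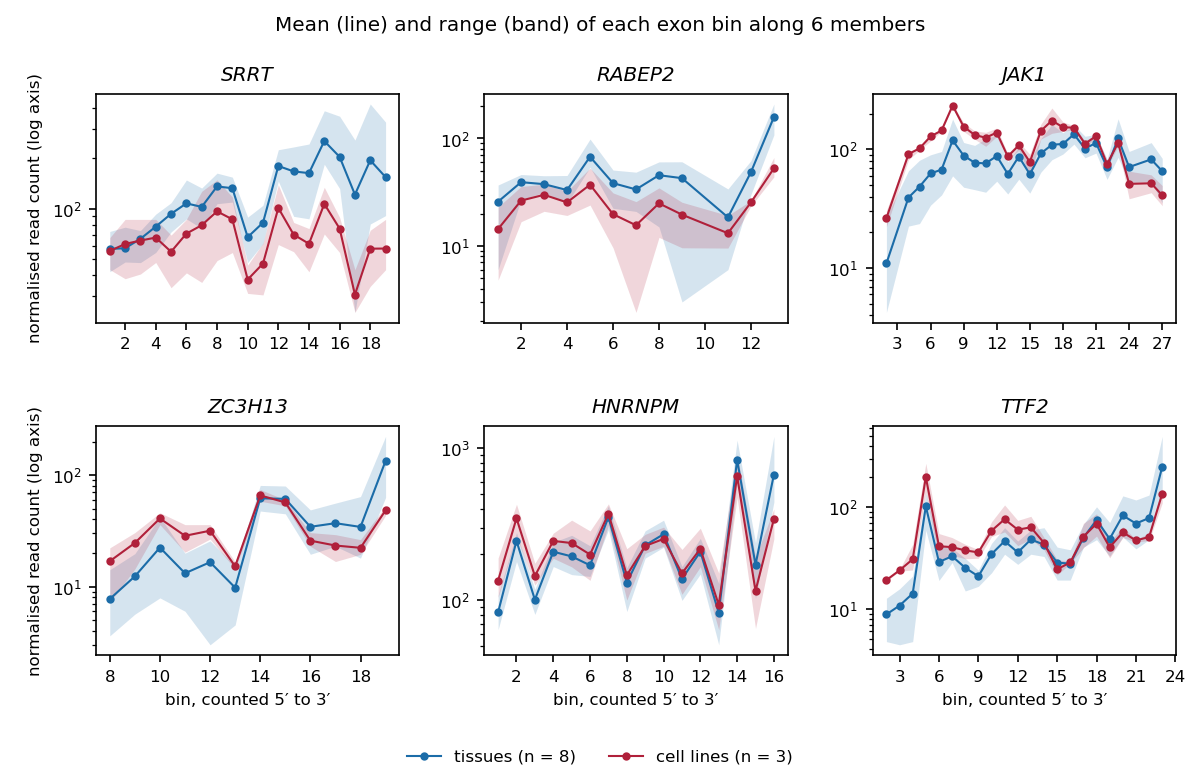
Mean (line) and range (band) of the normalised read count of each bin in the 8 tissues and the 3 cell lines, along *SRRT*, *RABEP2*, *JAK1*, *ZC3H13*, *HNRNPM* and *TTF2* from the 5′ to the 3′ end, on a log axis, for bins with a mean of at least 10. Lines and tissues start close together or with the lines above in *SRRT*, *JAK1*, *ZC3H13*, *HNRNPM* and *TTF2*, and the lines end below the tissues in all 6.

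Relative use of a bin, which was not itself used to choose the genes, was tested for 508 bins. It is the log2 difference of a bin between lines and tissues compared with the mean log2 difference of the other bins of its gene. Weak and strong bins count alike in that mean, which is therefore not the difference of the gene sum. Of the 508 bins, 7 bins in 5 genes differed at an adjusted p of 0.05 (limma diffSplice, Benjamini-Hochberg over 98962 bins), all with lower use in the lines, which is to be read beside 0.275% of all bins tested. All bins were not matched to the 508 in abundance or spread. The genes were chosen for a bin of low *CV*, and their median bin varied less than in comparable genes (0.299 beside 0.512). The test uses the spread of a gene's bins and is therefore not free of that choice. At an unadjusted p of 0.05, 90 of the 508 passed. The share of all bins at that limit was not worked out, and nothing is read from this count. These p-values treat the bins of a gene as independent, whereas neighbouring bins share reads and a slope along the transcript. They may be too small, and the counts of bins that passed are to be read with that limit. The last bin tested along the transcript was used less in the lines in all 37 genes (median relative log2 difference of -0.66, from -1.72 to -0.17), and the first one was used more in 31 (median of 0.51). Of the 7 bins, 4 were the last bin of their gene.

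*HNRNPU* bin 3 was the one with the lowest p. This weak bin, with a mean of 22.2 normalised reads between neighbours of 399 and 429, held 12.7, 26.9 and 47.4 reads in the lowest, median and highest tissue and 9.53, 2.40 and 6.01 in the lines. Every line lay below every tissue (relative log2 difference of -2.02, adjusted p = 0.00531, limma). The value of 2.40 in OSCA-32 stood for 1 read. *JAK1* had 3 such bins near its 3′ end. Bin 27, the last, held 35.4, 68.8 and 84.0 reads in the lowest, median and highest tissue and 49.6, 33.6 and 40.0 in the lines, so that the groups overlapped, while the whole gene had more reads in every line than in any tissue (-1.19, adjusted p = 0.00827, limma). The last bin of *ZC3H13*, bin 19, held 63.0, 122 and 223 reads in the tissues and 48.9, 52.7 and 43.5 in the lines, with no overlap (-1.72, adjusted p = 0.0164, limma). Those of *TTF2* (bin 23; -1.11, adjusted p = 0.0385) and *HNRNPM* (bin 16; -1.01, adjusted p = 0.0476) were also used less. *TTF2* bin 23 held 156, 192 and 499 reads in the tissues and 110, 156 and 142 in the lines, with OSCA-32 level with the lowest tissue. *HNRNPM* bin 16 held 441, 554 and 1188 in the tissues and 253, 398 and 375 in the lines, with no overlap.

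The count of such bins depended on single libraries and on the filter, whereas the differences kept about their size when 1 library was left out. With any 1 library left out, the relative log2 difference was -2.33 to -1.62 for *HNRNPU* bin 3, -1.86 to -1.59 for *ZC3H13* bin 19, -1.30 to -1.05 for *JAK1* bin 27, -1.19 to -1.0 for *TTF2* bin 23 and -1.16 to -0.89 for *HNRNPM* bin 16. The count was 0 without OSCA-32 (64 bins at an unadjusted p of 0.05, limma), 1 without OSCA-40, 2 without OSCA-30, 3 without 0460 or DOS-126 and 21 without DOS-71. Among all bins tested, 52 of 97423 passed without OSCA-32, 140 of 97060 without OSCA-40 and 131 of 97293 without OSCA-30. The count over all bins was 144 of 98190 without 0460, 155 of 98250 without DOS-126 and 811 of 97476 without DOS-71. With both DOS-71 and OSCA-32 left out, 2 bins passed, *HNRNPU* bin 3 and *ZC3H13* bin 19, beside 151 of 96365 bins of all genes. Among bins with a mean of at least 30, 5 in 3 genes passed, beside 154 of 53177 bins of all genes, and *HNRNPU* bin 3 was too weak to be tested. There, *ZC3H13* bin 19 shrank to -1.04 (adjusted p = 0.261, limma) and *TTF2* bin 23 to -0.96 (adjusted p = 0.116). *HNRNPM* bin 16 and *JAK1* bin 27 kept -1.01 and -1.15. With a pseudocount of 10, *HNRNPU* bin 3 shrank to -1.18 and *ZC3H13* bin 19 to -1.43, and *TTF2*, *HNRNPM* and *JAK1* gave -0.99, -0.98 and -1.03. Against the RNeasy Fibrous tissues alone 41 bins passed, beside 1817 of 95444 bins of all genes. Against the TRIzol tissues alone 0 passed, beside 65 of 96115, and 37 had an unadjusted p under 0.05 (limma).

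*CRKL* showed the other side of an unequal gene. It has 3 bins, and the last one along the transcript, bin 1, held most of its reads, with means of 484 in the tissues and 545 in the lines. Bins 2 and 3 had means of 55.6 and 29.7 in the tissues and 120 and 71.1 in the lines, and for both every line lay above every tissue. Without bin 1, which was also the most stable bin, *CRKL* was higher in the lines by a log2 difference of 1.18 (adjusted p = 0.0396, limma), in place of 0.35 ± 0.23 (adjusted p = 0.327) with it. *CRKL* was chosen here after its values had been seen.

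Between the 4 TRIzol and the 4 RNeasy Fibrous tissues, none of the 37 genes differed at an adjusted p of 0.05 (limma), beside 0.00714% of 13999 genes, and 1 had an unadjusted p under 0.05. The library labels also put the TRIzol and the RNeasy Fibrous tissues in different lanes. Kit can therefore not be told apart from lane or sample series, and nothing is read about kit alone. Relative to the median of all genes, which was -0.02 as deposited and 0.15 with equal totals, 14 of the 37 lay above it under both scalings.

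Of the 38 genes, 11 lay on chromosome 6, whereas no other of the 17 chromosomes with such genes held more than 4 and none of the 12 RT-qPCR genes lay on chromosome 6. The share of all genes on this chromosome was not analysed here. Of the 11 genes, 9 (among them *LOC479708*, *SRRT*, *CPSF4*, *CCZ1*, *RAC1*, *GET4*, *RABEP2* and *LCMT1*) lay between 1263850 and 21067011, and *ZNF326* and *ZRANB2* further along the chromosome. The *CV* of their gene sums had a median of 0.207 and the other 26 a median of 0.214. The group held the genes with the lowest (*ZNF326*) and the highest *CV* (*SRRT*) and both genes that differed between tissues and lines. The median log2 difference between lines and tissues was -0.22 in the 11 genes, from -0.98 (*RABEP2*) to 0.15 (*RAC1*), and -0.05 in the other 26.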

How the data were processed

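Poly(A) RNA libraries (TruSeq RNA kit v2, Illumina sequencing, RNA integrity number of at least 8 before library preparation) of 8 tissues and 3 cell lines were analysed. The authors aligned the reads to CanFam3.1 with TopHat after CASAVA 1.8.2, removed reads with several hits using SAMtools, and counted reads per bin of the flattened Ensembl release 73 annotation with the scripts of DEXSeq. The deposited values are normalised signal, that is read counts divided by 1 factor per library, whose method is not given in the sources used here; 100% of the values came out as whole reads within 0.01. Reads that span bins count in each, which makes neighbouring bins of a gene dependent.

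Gene sums were taken over bins, joined genes were left out of the 37 genes, and log2(value + 1) of features with a mean of at least 10 was fitted with limma 3.58.1 (trend; diffSplice for bins), with calls at an adjusted p of 0.05. Whole reads were recovered for edgeR 4.0.16 and DESeq2 1.42.0 as alternatives. By edgeR 12.8% and by DESeq2 21.3% of the genes tested differed between tissues and lines. The fits were also run on simulated data, but no outcome is given here and nothing is read from it. The *CV* used the sample standard deviation, its SE the jackknife over libraries. P-values of the gene fits measure the spread between the samples as labelled. Those of relative bin use pool the residual spread over the bins of a gene as if these were independent. They therefore count bins as well as samples and may be too small. The members, function groups and tests were chosen with earlier results of these data known. Named genes are those with the lowest and highest *CV* in each function group and those called; in each gene with a called bin, the bin with the lowest p. Gene symbols, positions and strands are annotation from the study's list; bins were ordered by strand. No identifier of the 24390 genes was in the RefSeq table at hand (UU_Cfam_GSD_1.0, which holds 37 of the 38 symbols), so that cell type markers and further members of the complexes were not analysed here. Other alternatives were scaling by median ratios or to equal totals, a pseudocount of 10, no filter, bins with a mean of at least 30, listed bins left out, each kit alone and each library left out. Leaving out the most stable bin, the 5′ and 3′ parts, the pair DOS-71 and OSCA-32, and each kit alone for the bins were added after seeing the data. The values of 3 of the 37 genes are not reported one by one here and are not drawn in the plots, but these genes remain in the counts and medians.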

Additional observations from a re-analysis of the deposited data

Results flagged for a closer look

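In 3 of the 37 genes, the highest of the 8 tissues lay far from the other 7 by Dixon's test, where about 1 gene in 20 is expected by chance. *TRPC4AP* had a gene sum of 3142 normalised reads in tissue 1091, with the next tissue at 2222 and the lowest at 1645. *HNRNPU* had 8081 in tissue 0460, with the next at 5947 and the lowest at 4914. *CCZ1* had 765 in DOS-126, with the next at 598 and the lowest at 481.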

How the results depend on the processing

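The count of genes that differed between tissues and lines (2) was 0 with median ratios, equal totals, edgeR, the RNeasy Fibrous or the TRIzol tissues alone, 1 with a pseudocount of 10, no filter, the 5′ part of the bins or without DOS-71 and OSCA-32, and 0 to 2 with 1 library left out. Where it was 0, between 1 and 5 genes had an unadjusted p under 0.05 (limma, edgeR). It was 0 without OSCA-30, 2 without DOS-71 and 1 without each of the other 9. It was 3 without the listed bins (36 of 52 listed entries could be paired with a bin, in 29 of the 37 genes), without the most stable bin or with the 3′ part. The median log2 difference of the 37 genes (-0.07) was 0.20 with median ratios, 0.21 with edgeR, 0.21 with DESeq2, 0.31 with the 5′ part and -0.41 with the 3′ part, and -0.16 to -0.02 with 1 library left out. The count of bins with different relative use (7) was 11 with a pseudocount of 10, 5 with bins of a mean of at least 30 and 2 without DOS-71 and OSCA-32. Among all bins tested, these counts were 798, 154 and 151. In the 37 genes it was 41 with the RNeasy Fibrous and 0 with the TRIzol tissues, beside 1817 and 65 of all bins tested. With 1 library left out it was 0 to 21, beside 52 to 811 of all bins tested. The median *CV* of the gene sums (0.213) was 0.260 with equal totals and 0.207 to 0.219 with 1 library left out; the median ratio of bin *CV*s (3.18) was 3.13 to 3.40 with 1 library left out, 4.19 with no filter, 2.74 with equal totals and 2.92 without DOS-71 and OSCA-32. The cause of these changes was not tested. None of the 37 genes differed between the TRIzol and the RNeasy Fibrous tissues under the alternatives run. No paired analysis was possible because the labels give tissues and lines no shared pairing. Over all refits, single genes' log2 differences kept sign and side of the threshold in 726, changed sign without passing the test in 128, no longer passed in 28 and newly passed in 6. Depth in DOS-71 and OSCA-32 limits the single bins: *CPSF4* had 62 reads, added up over its bins, in its shallowest library, and bins near a mean of 10 held few reads there.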
